A study of Homo sapiens with 14 samples.

Results

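The clustered replication-dependent histone genes are the genes whose symbols begin with HIST1H, HIST2H, HIST3H or HIST4H, and 73 of the 23106 gene rows counted in this RNA-seq series carry such a symbol. They comprise 6 linker histone H1 genes, 18 H2A, 20 H2B, 14 H3 and 15 H4 genes, and 56 of the 73 belong to the HIST1 cluster on chromosome 6. RNA was taken from 2 cancer cell lines, PC3 (prostate carcinoma) and HCT116 (colorectal carcinoma), kept for 16 h in hypoxia (0.5% O2) or in normoxia (21% O2), with 4 libraries per condition in PC3 and 3 in HCT116. Both lines were used without a knock-out or added gene, and the libraries were made from poly(A)-selected RNA. The replicates of a line come from 1 established cell line, so that each line stands for itself and not for its tissue.

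Histone proteins package DNA, with H2A, H2B, H3 and H4 forming the core of the nucleosome and H1 binding the linker between nucleosomes. The cluster genes are transcribed mainly in S phase, and their mRNAs end in a conserved stem-loop, bound by SLBP and cut with the help of the U7 snRNP, in place of a poly(A) tail. Some members also give polyadenylated mRNAs, which poly(A) selection retains. A level in these libraries is therefore the level of RNA that passed poly(A) selection, and the unpolyadenylated transcripts of the same genes were not measured by design. In bulk RNA, fewer cells in S phase and less RNA per cell cannot be told apart.

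The stem-loops are shown first, because they define these genes and differ by class. Of the members, 70 were placed on GRCh37 with the GENCODE annotation, as 67 protein-coding genes and 3 pseudogenes, and HIST1H2BF, HIST1H2BG and HIST1H4F were not placed. All 67 coding genes hold the conserved letters of the histone stem-loop on the coding strand, the strand searched, within 300 bases after the stop codon, starting 23 to 68 bases after it (median 36), and the 6 pairs of the stem are all complementary in 65 of them, with 1 pair of G and T in each of the other 2. The same letters were found in the corresponding window of 146 of 19763 protein-coding genes (0.739%), a number that includes members, and outside the members in 81 of 19698 (0.411%). In the sequences below, read from GRCh37, capitals mark the 16 bases of the stem-loop, whose coordinates are given, and lower case the 5 bases on each side.
HIST1H2BK (chr6:27114145-27114160, minus strand): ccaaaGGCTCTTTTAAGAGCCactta
HIST1H2BD (chr6:26158815-26158830, plus strand): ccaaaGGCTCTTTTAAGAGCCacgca
HIST1H2BJ (chr6:27100100-27100115, minus strand): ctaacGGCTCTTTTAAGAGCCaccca
HIST1H1C (chr6:26055972-26055987, minus strand): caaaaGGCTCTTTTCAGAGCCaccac
HIST1H2AC (chr6:26124897-26124912, plus strand): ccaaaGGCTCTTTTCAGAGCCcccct
HIST3H2A (chr1:228645070-228645085, minus strand): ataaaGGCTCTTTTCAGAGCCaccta
HIST1H2AE (chr6:26217645-26217660, plus strand): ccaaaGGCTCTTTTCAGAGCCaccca
HIST1H4C (chr6:26104545-26104560, plus strand): ccaaaGGCCCTTTTCAGGGCCgctca
HIST1H4H (chr6:26285359-26285374, minus strand): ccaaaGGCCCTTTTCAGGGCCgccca
All 14 placed H4 coding genes begin the stem with GGCCC, and the coding genes of the other classes begin it with GGCTC, apart from 1 H2A gene. HIST1H4C and HIST1H4H, which differ in opposite directions between the lines, have the same 16 bases. The 6 members taken as polyadenylated from general knowledge were HIST1H1C, HIST1H2AC, HIST1H2BC, HIST1H2BD, HIST1H2BK and HIST2H2BE. The annotation holds a transcript of 4 of these 6 that ends within 50 bases after AATAAA or ATTAAA, and none for HIST1H1C or HIST1H2BK. In all, 19 of the placed members have such a transcript. They include HIST1H2BH and HIST1H4J, whose only annotated transcript ends just after the stem-loop, so the letters alone do not mark a polyadenylated form.

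The libraries held between 71228454 and 150630928 counts, and 3 counts, the floor used below, corresponded to 0.0201 to 0.0445 CPM (the count of a gene scaled to the TMM-normalised library size). Line labels were checked on marker genes. CTNNA1, which is deleted in PC3, had a mean of 0.0427 CPM in normoxic PC3 and 384.2 CPM in normoxic HCT116. The intestinal regulator CDX2 was at 0 in PC3 and had a mean of 17.7 CPM in normoxic HCT116. Other colon markers were low and went both ways. CDX1 was at 0 in every library. KRT20 had means of 0.184 CPM in normoxic PC3 and 1.18 CPM in normoxic HCT116, and LGR5 of 0.137 and 0.00724 CPM. Of the prostate markers, HOXB13 had a mean of 80.9 CPM in normoxic PC3 and 10.0 CPM in normoxic HCT116. KLK3 was at 0 in every library. All 8 hypoxia reporters, among them CA9 and NDRG1, rose in both lines.

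Of the 73 members, 15 were at 0 in every library and 8 more never reached 10 counts. Those at 0 include HIST2H2AA3 and HIST2H2AA4, HIST2H3A and HIST2H3C, and HIST2H4A and HIST2H4B, pairs of near-identical copies for which reads that fit both copies may have been left uncounted, so that their zeros are uncertain. The testis histone genes HIST1H2BA and HIST3H3 were also at 0. At least 10 counts in every library of the line were found for 31 members in PC3 and 26 in HCT116.

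Summed by class, PC3 had more cluster histone RNA that passed poly(A) selection than HCT116, except in H4. Most of the H4 sum in HCT116 came from HIST1H4C alone. Summed over the 73 genes, the normoxic level was 191.8 ± 23.0 CPM (SD, n = 4) in PC3 and 39.3 ± 3.40 CPM (SD, n = 3) in HCT116, a ratio of 4.88. H2B genes made up 69.4% of that sum in PC3 and 41.6% in HCT116, whereas H4 genes made up 1.87% and 19.3%.

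By class, the H2B sum was 133.1 ± 13.2 CPM in normoxic PC3 and 16.3 ± 0.291 CPM in normoxic HCT116. The H2A sum was 25.7 ± 2.66 and 7.89 ± 0.881 CPM, the H1 sum 26.4 ± 5.69 and 6.31 ± 1.09 CPM, and the H3 sum 3.11 ± 0.516 and 1.16 ± 0.113 CPM. For these 4 classes every PC3 library lay above every HCT116 library, in normoxia and in hypoxia. The H4 sum went the other way in normoxia, with 3.59 ± 1.10 CPM in PC3 (2.67 to 4.99) and 7.60 ± 1.41 CPM in HCT116 (6.16 to 8.98), and in hypoxia the H4 ranges of the lines overlapped, at 3.74 to 6.19 and 5.55 to 8.88 CPM. HIST1H4C set the direction of the H4 sum in normoxia, with means of 0.116 CPM over all PC3 and 6.50 CPM over all HCT116 libraries. The other H4 genes together were higher in PC3 in normoxia. These sums describe the libraries and carry no test.

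**Figure D1:**
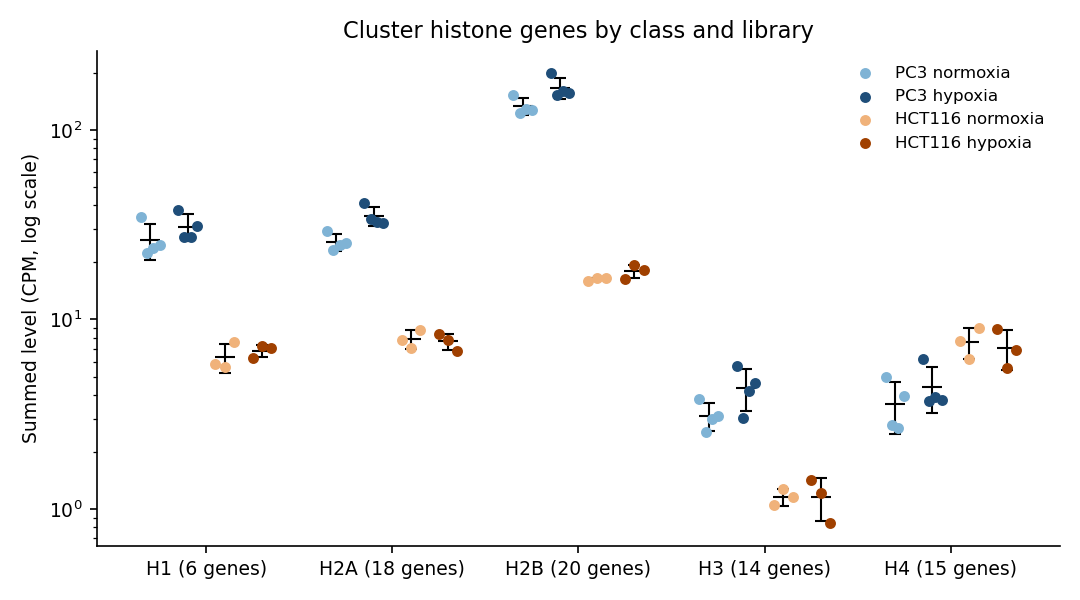
Summed level of the members of each histone class (CPM, logarithmic vertical axis), with 1 point per library, the mean as a horizontal mark and the SD as a bar, for 4 PC3 and 3 HCT116 libraries per condition. The H2B points of PC3 are the highest, between 123.2 and 198.8 CPM, and H4 is the class in which normoxic HCT116 lies above normoxic PC3.

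A single gene, HIST1H2BK, took the largest share of the counts. Its level was 102.5, 87.8, 91.6 and 83.7 CPM in the normoxic PC3 libraries (replicates 1 to 4) and 11.3, 11.9 and 12.1 CPM in the normoxic HCT116 libraries. It held 45.3% to 50.4% of the members' counts in normoxic PC3 and 28.2% to 32.5% in normoxic HCT116. Without it, the sum over the other members was 3.65 times higher in PC3 in normoxia.

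The 6 polyadenylated genes together held 83.1% to 85.6% of the members' counts in normoxic PC3 and 52.6% to 57.8% in normoxic HCT116. Their summed level was 162.7 ± 20.5 CPM in PC3 and 21.7 ± 1.96 CPM in HCT116, a ratio of 7.49. The other 67 members summed to 29.2 ± 3.31 and 17.6 ± 1.95 CPM, a ratio of 1.66.

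Levels of different genes were compared per kilobase of the longest annotated transcript, since the gene models used in counting were not at hand. In normoxic PC3 the order was HIST1H2BK with 184.7 ± 16.3 CPM per kilobase, HIST1H1C with 35.0 ± 7.85, HIST1H2BD with 16.5 ± 1.66 and HIST1H2AC with 8.67 ± 1.31. HIST2H2BE (5.59 ± 1.93) and HIST1H2BJ (5.09 ± 0.459) followed and did not differ beyond their spread. In normoxic HCT116, HIST1H2BK stood at 23.8 ± 0.866 CPM per kilobase, the H4 gene HIST1H4C was second with 17.0 ± 3.55, followed by HIST1H1C with 7.84 ± 1.65. HIST3H2A (2.51 ± 0.307) and HIST1H2BD (2.31 ± 0.0592) came next, within each other's spread. The most abundant H3 genes were far lower, with HIST1H3D at 1.81 ± 0.349 CPM per kilobase in PC3 and HIST1H3J at 0.405 ± 0.141 in HCT116. With the median transcript length in place of the longest, HIST1H2BJ rose to 10.1 and HIST1H2BC from 2.27 to 8.78 CPM per kilobase in PC3, and in HCT116 HIST3H2A rose to 4.52, apart from HIST1H2BD at 2.31, so the places of these genes depend on the transcript form.

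The lines were then compared gene by gene in normoxia, to ask which members differ. The quasi-likelihood test of edgeR was run over 15206 genes, and a gene was called at a Benjamini-Hochberg adjusted p under 0.05. Of the 41 members that passed the filter on low counts, 31 were called (75.6%), where 83.4% of all genes tested were. Higher levels in PC3 were called for 24 members (58.5%), beside 42.9% of all genes, and lower levels for 7, beside 40.5% of all genes. Members that are nearly absent in 1 line passed the filter only through the other, so their direction was given by the filter. Among the 31 members with at least 10 counts in some normoxic library of each line, 16 were higher and 6 lower in PC3, beside 40.1% and 41.3% of the 13562 such genes. The median log2 difference was 0.78 over these 31 members, against -0.02 over the 13562 such genes. Over all 41 members tested it was 1.28, against 0.03 over all genes tested. The lines may also differ in sequencing instrument and read length, which cannot be told apart from the line.

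All 6 polyadenylated genes were higher in PC3. HIST1H2BK differed by 2.95 on the log2 scale (SE 0.09, edgeR adjusted p = 2.8e-09). HIST2H2BE was at 18.5, 9.17, 9.52 and 12.6 CPM in normoxic PC3 and 0.543, 0.690 and 0.509 CPM in normoxic HCT116, a log2 difference of 4.41 (SE 0.30). The other 4 of these genes lay between 2.15 (HIST1H1C, SE 0.20) and 3.70 (HIST1H2BC, SE 0.24). Of the 35 other members tested, 18 were higher and 7 lower in PC3, beside 42.9% and 40.5% of all genes. Their median log2 difference was 0.91. They include members nearly absent in HCT116, whose direction was given by the filter.

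HIST1H4C was the largest difference in the other direction. This H4 gene was at 0.0335, 0.130, 0.0871 and 0.174 CPM in normoxic PC3 and at 7.02, 5.36 and 8.23 CPM in normoxic HCT116, with 1 to 28 counts in any PC3 library and 648 to 1151 in any HCT116 library. The groups were far apart, and HIST1H4C was 64.3-fold higher in HCT116 in normoxia (log2 difference of PC3 to HCT116 -6.01, SE 0.33, edgeR adjusted p = 1.2e-07) and 46.7-fold higher in hypoxia. HIST1H4A was also lower in PC3 (-2.74, SE 0.77), as were the H3 gene HIST1H3J (-2.02, SE 0.57) and the H2A gene HIST1H2AH (-1.54, SE 0.36). In the annotation, HIST1H3J overlaps most of HIST1H2AM, so reads of that stretch are uncertain for both. HIST2H2AC, HIST2H2BC and HIST1H2AJ were called with log2 differences of -0.60 to -0.95, and each of these calls was lost when single libraries were left out.

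**Figure D2:**
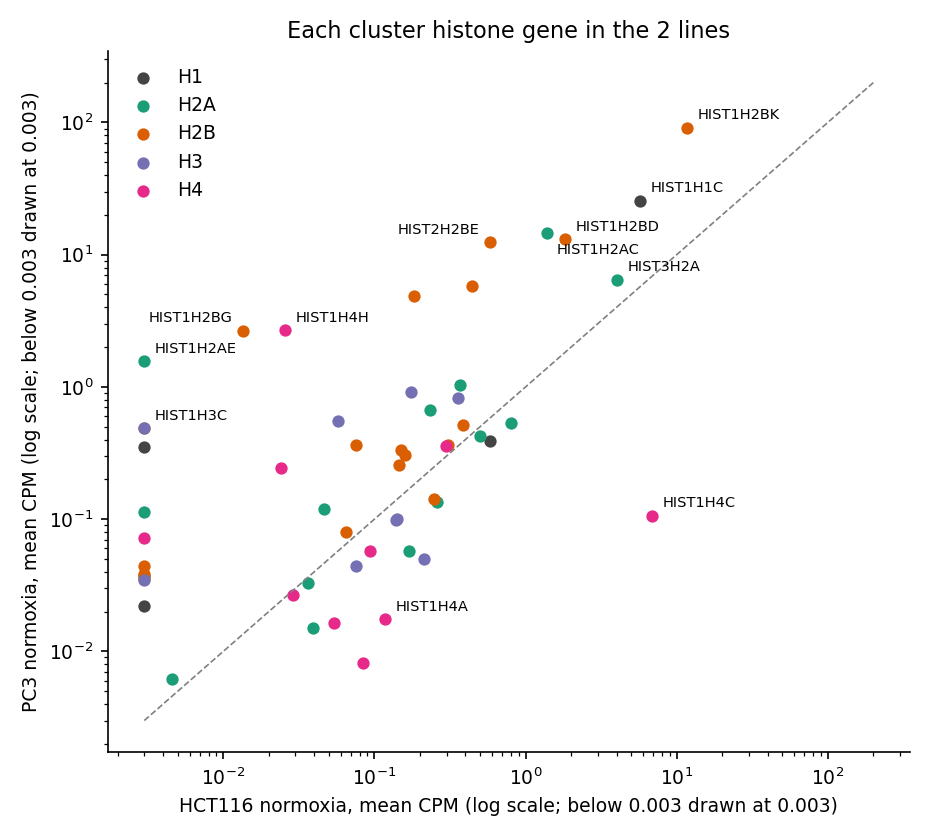
Mean level of each cluster histone gene in normoxic HCT116 (horizontal) and normoxic PC3 (vertical), both in CPM on logarithmic axes, with 1 point per gene coloured by class and a dashed line of equal level. HIST1H4C stands apart below the line with 0.106 CPM in PC3 and 6.87 CPM in HCT116, and HIST1H2BK lies at the top with 91.4 and 11.8 CPM.

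Some members were at 0 in all 6 HCT116 libraries. HIST1H2AE, an H2A gene, had 154 to 223 counts in the normoxic PC3 libraries and was at least 73.6-fold higher there than the floor of 3 counts per library in normoxic HCT116. On the same floor the H3 gene HIST1H3C was at least 23.0-fold, the H2B gene HIST1H2BH at least 22.9-fold, the H1 gene HIST1H1D at least 16.4-fold and the H2A gene HIST1H2AL at least 5.29-fold higher in PC3. The H4 gene HIST1H4H was not at 0 in HCT116, with 1 to 7 counts, against 201 to 489 in PC3 (log2 difference 6.63, SE 0.49). HIST1H2BG, which has no position here, had 2.06 to 3.08 CPM in normoxic PC3 and reached 0.0403 CPM in 1 normoxic HCT116 library, with 0 in the other two.

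Several of these genes are neighbours, a pattern noticed after the values were seen. Between HIST1H2AE and HIST1H4H (chr6:26217149-26285866, GRCh37) lie 9 placed members, of which 7 were at 0 in every HCT116 library and 2 of those also at 0 in PC3. The 9 genes summed to 4909 counts over the 8 PC3 libraries and to 70 over the 6 HCT116 libraries, with 11 the highest count of any of them in a HCT116 library. The 44 other placed members on chromosome 6 summed to 146219 and 27830 counts. Of them, 8 were at 0 in every HCT116 library and 5 of those also at 0 in PC3. HIST1H3C and its neighbour HIST1H2BB form another such stretch, with HIST1H2BB at 1 to 7 counts in PC3. The next placed members on either side were counted in both lines, with 17 to 58 counts of HIST1H4E in PC3 and 23 to 80 in HCT116 11899 bases before the stretch, and HIST1H2BJ, 807809 bases after it, at 441 to 836 and 18 to 43 counts. What lies behind these zeros was not tested.

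**Figure D3:**
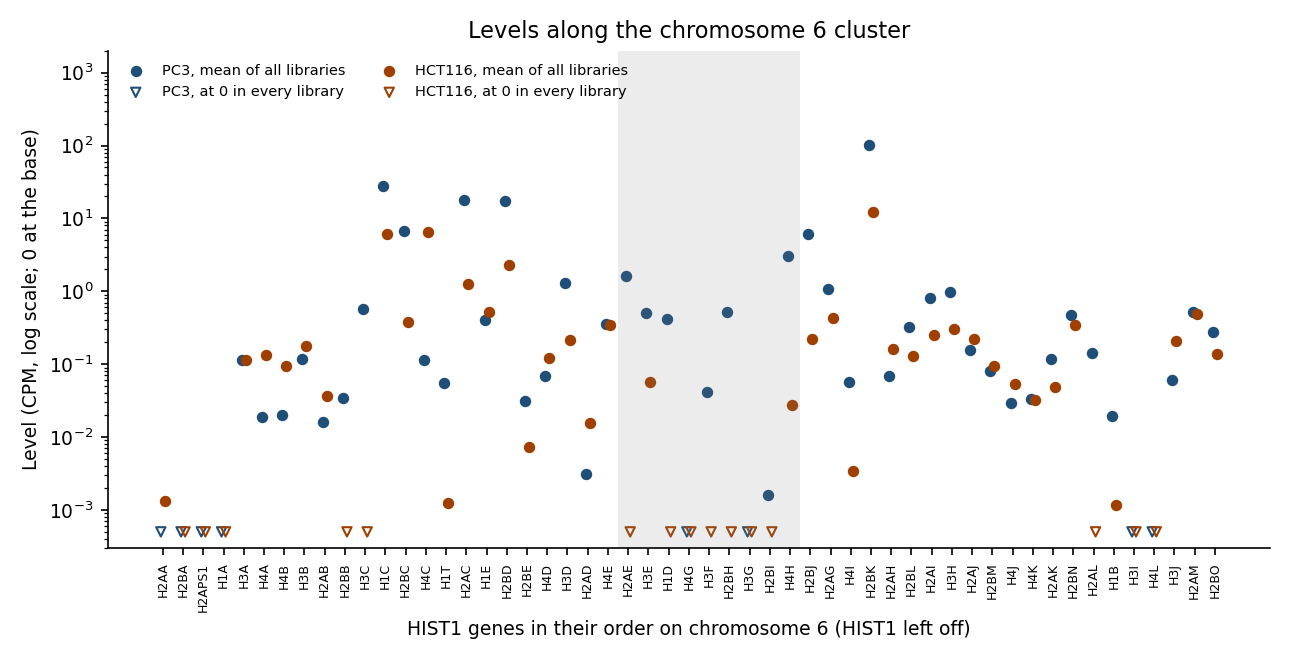
Mean level of each placed HIST1 gene over all libraries of a line (CPM, logarithmic vertical axis), in the order of the genes on chromosome 6, with open triangles at the base for genes at 0 in every library of that line. Grey shading marks the 9 genes from HIST1H2AE to HIST1H4H, where HCT116 has 2 points above 0 and PC3 has 7.

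Many H2A and H2B genes start back to back, and 11 such pairs with 169 to 288 bases between the annotated genes were found. Of the 9 pairs with counts of both genes in both lines in normoxia, 7 had the same gene higher in both lines and 2 changed order. The order within a pair can depend on the length used. In normoxic HCT116, HIST1H2AK and HIST1H2BN were nearly equal per kilobase of the longest transcript, at 0.0942 and 0.0939. Without the length they were at 0.0467 and 0.388 CPM. The members of a pair often differed widely in level. HIST1H2BK, at 184.7 CPM per kilobase in normoxic PC3, faces HIST1H2AH at 0.127, and in normoxic HCT116 the same genes stood at 23.8 and 0.373. HIST2H2BE lay above its partner HIST2H2AC in PC3, with 5.59 against 1.08 CPM per kilobase, and below it in HCT116, with 0.261 against 1.61. HIST1H2BJ and HIST1H2AG were the other pair that changed order, with 5.09 and 2.10 in PC3 and 0.192 and 0.752 in HCT116. These pairs were picked with their levels known. The pair of HIST1H2BL and HIST1H2AI kept its order, at 0.672 and 1.35 in PC3 and 0.352 and 0.471 in HCT116. Whether counting used strand is not stated in the sources used here, but the genes of these pairs do not overlap in the annotation.

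In hypoxia the comparison of the lines gave 28 called members of 41, with 25 higher and 3 lower in PC3, where 78.7% of all 14890 genes were called (40.6% higher, 38.1% lower). All 6 polyadenylated genes were again higher in PC3, with log2 differences of 2.24 to 4.56. The 3 lower ones were HIST1H4C, HIST1H4A and HIST1H3J. Members nearly absent in HCT116 passed the filter only through PC3, so their direction was again given by the filter. With at least 10 counts in some hypoxic library of each line, 32 members remained. Of these, 17 were higher and 2 lower in PC3, beside 38.2% and 38.1% of the 13367 such genes.

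Hypoxia was then compared with normoxia within each line. In PC3, 3 of the 37 members tested rose and none fell, with 8.11% higher beside 6.03% of all 14309 genes tested (11.3% in either direction, 5.29% lower). HIST1H2BD, HIST1H2BJ and HIST3H2A were the 3 that rose. By unadjusted p, 10 members (27.03%) were under 0.05, where 27.7% of all genes were. The fitted log2 fold change was above 0 for 33 of the 37 members, with a median of 0.27 against 0.00 over all genes. By class the medians were 0.23 for 3 H1 genes, 0.43 for 10 H2A, 0.24 for 14 H2B, 0.41 for 6 H3 and 0.17 for 4 H4 genes.

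HIST1H2BD was at 14.01, 12.5, 11.5 and 14.2 CPM in the normoxic PC3 libraries and at 26.8, 21.1, 18.5 and 19.0 CPM in the hypoxic ones. All hypoxic libraries lay above all normoxic libraries, and the log2 fold change was 0.72 (SE 0.13, edgeR adjusted p = 0.011). HIST1H2BJ, an H2B gene that is not on the polyadenylated list but has an annotated transcript ending after AATAAA or ATTAAA, was at 4.91, 4.21, 5.21 and 5.02 CPM in normoxia and 9.14, 6.59, 7.84 and 6.54 CPM in hypoxia. It rose by 0.65 on the log2 scale (SE 0.14, edgeR adjusted p = 0.017). HIST3H2A, the H2A gene of the small cluster on chromosome 1, was at 6.88, 5.89, 6.47 and 6.66 CPM in normoxia and 8.50, 9.01, 7.63 and 9.53 CPM in hypoxia, without overlap (log2 0.42, SE 0.10, edgeR adjusted p = 0.025). With normoxic replicate 2 or normoxic replicate 3 left out, HIST1H2BD alone remained past the threshold, and the call of HIST3H2A was also lost without hypoxic replicate 2 and without normoxic replicate 4. Besides these 3 genes, HIST1H1D did not overlap between conditions, which makes 4 of 37 members higher in hypoxia without overlap, beside 9.62% of all genes, and 0 lower, beside 11.3%.

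The replicate numbers were taken to pair the PC3 libraries, a pairing that the correlations given below show clearly only for replicate 1. With the replicate as a block, 9 of the 37 members rose (24.3%, beside 14.9% of all genes). The 6 added were HIST1H1C (0.24, SE 0.06), HIST1H2AC (0.52, SE 0.07), HIST1H2BC (0.40, SE 0.09), HIST1H2BK (0.27, SE 0.05), HIST1H3D (0.82, SE 0.20) and HIST1H4H (0.37, SE 0.11). With DESeq2, 6 members rose (beside 9.74% of all genes), namely the 3 of edgeR and HIST1H2AC, HIST1H2BC and HIST1H3D. The summed level of all members was 225.6, 174.0, 183.2 and 184.6 CPM in normoxia and 289.9, 219.7, 227.8 and 229.2 CPM in hypoxia. Each hypoxic library lay above the normoxic library of the same number. Replicate 1 had the highest sum in both conditions, and without both of its libraries 4 members rose, HIST1H2AC joining the 3 named above.

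In HCT116, 1 of the 33 members tested rose and none fell, with 3.03% higher beside 14.6% of all 14120 genes tested (25.9% in either direction, 11.3% lower). The gene was HIST1H2BD, at 1.88, 1.80 and 1.80 CPM in normoxia and 2.35, 3.13 and 2.98 CPM in hypoxia. Its conditions did not overlap, and it rose by 0.65 (SE 0.14, edgeR adjusted p = 0.0068). It was past the threshold in both lines, and its response differed by 0.08 between them (SE 0.19, edgeR adjusted p = 0.91). HIST2H2BE also lay higher without overlap, which makes 2 of 33 members beside 20.2% of all genes, and HIST1H2AC lay lower, 1 of 33 beside 22.2%. Fitted log2 fold changes were above 0 for 17 of the 33 members, with a median of 0.04. HIST1H2BK had a log2 fold change of 0.10 (SE 0.09), HIST3H2A one of 0.04 (SE 0.13) and HIST1H4C one of -0.14 (SE 0.20), none past the threshold. Only 1 member had an unadjusted p under 0.05, where 38.7% of all genes did.

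**Figure D4:**
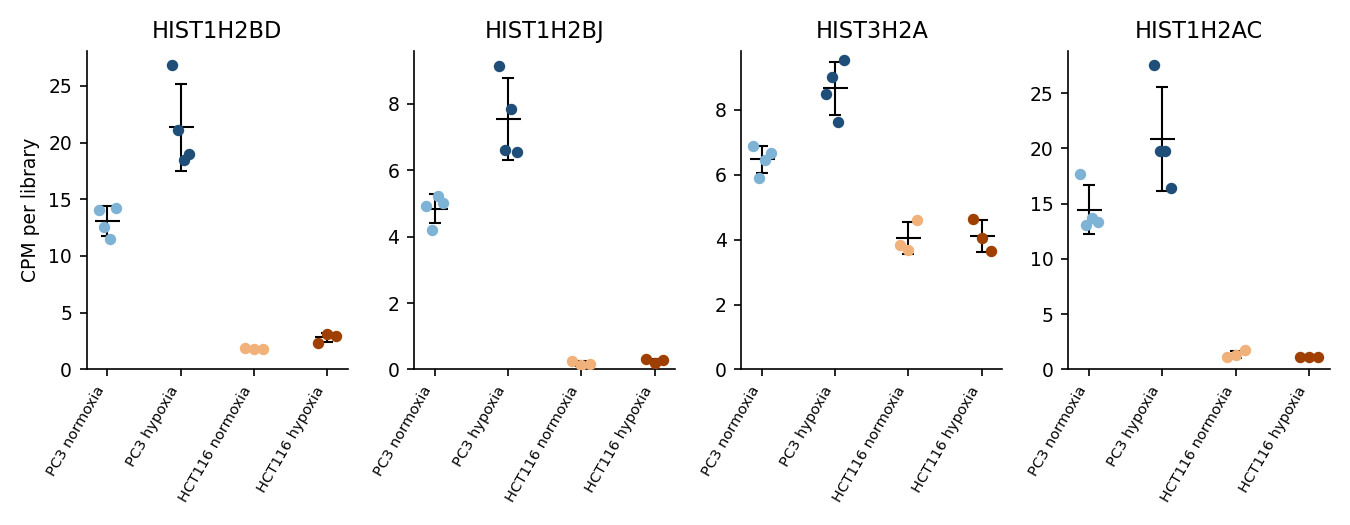
Level of 4 genes in every library (CPM, linear axes from 0), with the mean as a horizontal mark and the SD as a bar. HIST1H2BD is higher in hypoxia in both lines, and HIST1H2AC has 16.4 to 27.5 CPM in hypoxic PC3 against 13.03 to 17.7 CPM in normoxic PC3.

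The difference of the hypoxia response between the lines was tested as the interaction of line and oxygen over all 14 libraries. None of the 44 members tested was called by edgeR, where 2.32% of all 15493 genes were, and 4 had an unadjusted p under 0.05 (9.09%, beside 16% of all genes). HIST1H2AC was nearest to the threshold. It was at 17.7, 13.03, 13.7 and 13.4 CPM in normoxic and 27.5, 19.8, 19.7 and 16.4 CPM in hypoxic PC3, and at 1.15, 1.27 and 1.72 CPM in normoxic and 1.11, 1.12 and 1.15 CPM in hypoxic HCT116. Its response was 0.82 higher in PC3 on the log2 scale (SE 0.25, edgeR adjusted p = 0.11), and DESeq2 called it, as the single member, with an adjusted p of 0.031 (6.6% of all genes were called). It was also called by edgeR with the replicate block within each line, at 0.79 (SE 0.15, adjusted p = 0.0089), where 8.44% of all genes were called, and when both PC3 libraries of replicate 1 were left out.

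**Figure D5:**
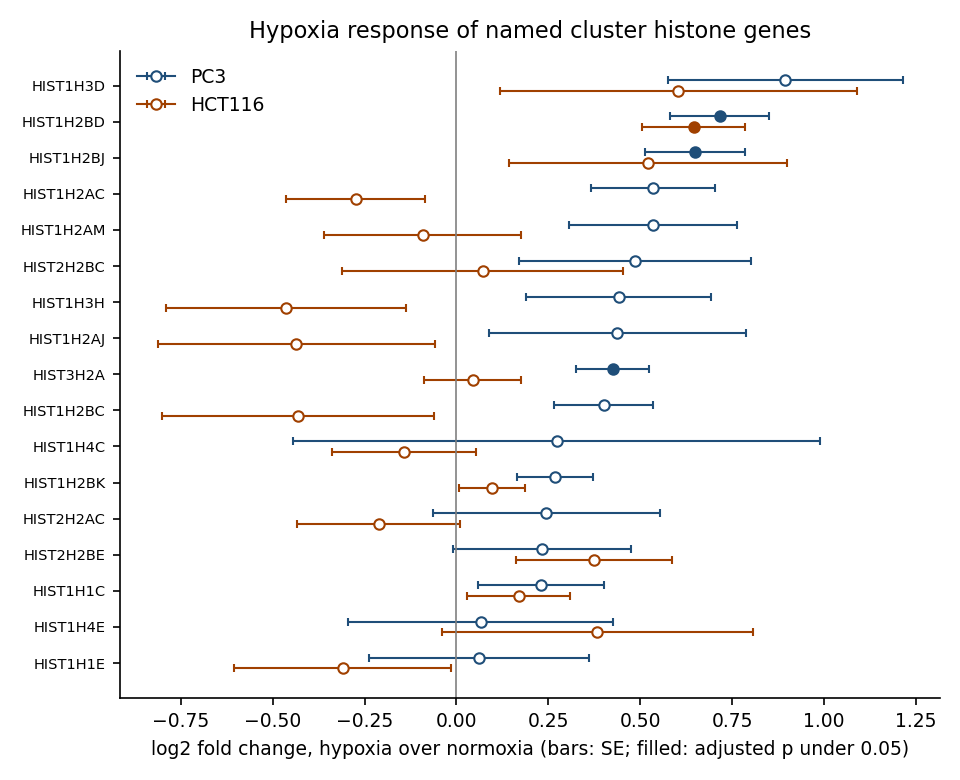
Log2 fold change in hypoxia over normoxia, with the SE as a bar, of the named genes tested in both lines, with filled points for an adjusted p under 0.05 in edgeR. HIST1H2BD is filled in both lines, at 0.72 in PC3 and 0.65 in HCT116, and the PC3 points of all genes shown lie above 0.

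The factors that make and degrade histone mRNA were measured from a list of 30 genes, 28 of which were tested. In PC3, 3 of them fell in hypoxia and none rose, beside 5.29% and 6.03% of all genes. ZNF473, a zinc finger protein of the U7 snRNP pathway, fell by 0.59 on the log2 scale (SE 0.09), CSTF2T by 0.55 (SE 0.07) and CSTF2, a cleavage stimulation factor, by 0.29 (SE 0.08). In HCT116, 6 fell and 2 rose, beside 11.3% and 14.6% of all genes. ZNF473 fell there by 0.39 (SE 0.07) and LSM10, a protein of the U7 snRNP, by 0.53 (SE 0.13), while POU2F1, a transcription factor that acts on H2B genes, rose by 0.55 (SE 0.08) and SNRPF fell by 0.30 (SE 0.07). SLBP, the stem-loop binding protein, had log2 fold changes of 0.07 (SE 0.07) in PC3 and -0.04 (SE 0.06) in HCT116, neither past the threshold. Between the lines in normoxia, 8 of the 28 were higher and 17 lower in PC3, beside 42.9% and 40.5% of all genes. Chosen after their values were seen, SLBP was at 78.4 ± 4.55 CPM in PC3 and 221.9 ± 3.93 CPM in HCT116, and ERI1, an exonuclease of histone mRNA, at 16.0 ± 1.02 and 128.8 ± 5.70 CPM.

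Of 32 S phase genes, 1 fell and none rose in PC3 in hypoxia (RFC4, by 0.41, SE 0.09), beside 5.29% and 6.03% of all genes. In HCT116, 4 rose and 3 fell, beside 14.6% and 11.3% of all genes. There TK1 rose by 0.57 (SE 0.07) and RFC4 fell by 0.50 (SE 0.07). Between the lines in normoxia 24 of the 32 were lower in PC3 and 3 higher, beside 40.5% and 42.9% of all genes, and their summed level was 3942 to 4459 CPM in PC3 and 6477 to 6772 CPM in HCT116. As a measure of unpolyadenylated RNA that escaped selection, 21 other RNAs without a poly(A) tail, such as RMRP and SCARNA12, summed to 2.10 to 4.81 CPM in normoxic and 2.06 to 8.71 CPM in hypoxic PC3, and to 3.43 to 4.38 and 4.04 to 4.18 CPM in HCT116. The highest sum was in hypoxic PC3 replicate 3. None of the 7 tested members of that list was called in PC3 in hypoxia, where 11.3% of all genes were. The part of S phase and of escaped RNA in the histone levels was not tested.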

How the data were processed

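Poly(A)-selected RNA of PC3 and HCT116 cells was sequenced as paired ends. The authors aligned reads with HISAT2 (version 2.05), first to ERCC spike-ins and then to GRCh37, and counted RefSeq genes with HTSeq (version 0.5.4p3) in intersection-strict mode. The deposited values are raw counts per gene, used as they stand. The RefSeq release, the strand setting and the read length of each library are not given in the sources used here.

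Groups followed the labels. edgeR (version 4.0.16, R 4.3.3) was run with filterByExpr by group, TMM scaling and the quasi-likelihood test, with Benjamini-Hochberg adjustment over all genes tested. The SE is the unshrunk log2 fold change over the square root of F. DESeq2 (version 1.42.0), other scalings, other filters, a replicate block, one fit over both lines and leaving out each library were alternatives, and leaving out both PC3 libraries of replicate 1 was added after the values were seen. The fits were tested on simulated data. The members and gene lists were chosen with earlier results of these data known. Named genes were the polyadenylated list, the 3 most abundant per class and line, those called in hypoxia or in the interaction, and the 6 largest called line differences each way with at least 0.1 CPM.

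Lengths and sequences came from GENCODE (GRCh37). Replicates differed by a chi-square of 12.5 to 268.3 per degree of freedom, and each was counted once. Floors cover counting error only. In PC3, deviations from the condition means of libraries with the same number correlated at 0.692, 0.280, 0.152 and 0.295 (replicates 1 to 4), and the numbers were taken to pair these libraries. Some libraries with unlike numbers came close, with normoxic 2 and hypoxic 3 at 0.146 and normoxic 4 and hypoxic 2 at 0.210.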

Additional observations from a re-analysis of the deposited data

Results flagged for a closer look

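In groups of 4 libraries, 65 sets of values were examined and in 8 of them 1 library lay far from the other 3, where chance gives about 1 in 20. All 8 concern replicate 1 of PC3. In normoxia, HIST1H1C was at 34.1 CPM in replicate 1 and at 21.5 to 23.6 CPM in the others, and HIST1H2AC at 17.7 CPM and 13.03 to 13.7 CPM. In hypoxia, HIST1H4H was at 4.98 CPM in replicate 1 and at 2.78 to 2.98 CPM in the others, whereas HIST1H2AM was lower, at 0.394 CPM and 0.671 to 0.727 CPM. The sum of all members in hypoxic replicate 1 was 289.9 CPM (219.7 to 229.2 CPM in the others), that of H2A genes 41.2 CPM (32.4 to 33.9 CPM), that of H2B genes 198.8 CPM (151.9 to 159.7 CPM) and that of H4 genes 6.19 CPM (3.74 to 3.90 CPM). These sums share genes and are not independent of each other. The summed level of S phase genes in the same hypoxic library was 3664 CPM, the lowest of the PC3 libraries, and its part in these values was not tested.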

How the results depend on the processing

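In PC3 in hypoxia, 3 members were past the threshold, 6 with DESeq2 and 9 with the replicate block, and 1 to 5 with single libraries left out. The count was 1 without normoxic replicate 2 or 3, and 5 without hypoxic replicate 4. In HCT116 the count was 1 under all other settings run, and 1 to 2 with single libraries left out, HIST1H1C joining without normoxic replicate 3. Between the lines, requiring at least 10 counts in every library left 24 members tested and 18 called in normoxia (15 higher and 3 lower in PC3, beside 41.1% and 41.5% of all genes), and 20 tested and 13 called in hypoxia (13 higher, 0 lower, beside 39.1% and 38% of all genes). That filter removes the genes at 0 in HCT116. Requiring 10 counts in some library of each line was chosen after the values were seen. It left 22 called of 31 in normoxia (16 higher and 6 lower in PC3, beside 40.1% and 41.3% of all such genes). In hypoxia it left 19 called of 32 (17 higher and 2 lower, beside 38.2% and 38.1%). For the difference of the responses, no member was called, but 1 (HIST1H2AC) with DESeq2, 1 with the replicate block within each line and 1 without both PC3 libraries of replicate 1. The cause of these changes was not tested. HIST3H2A in HCT116 reversed to -0.047 with total-count scaling, and lay between -0.057 and 0.14 with single libraries left out. The HCT116 numbers correlated at 0.092, 0.152 and 0.035 and were not taken to pair those libraries, although each correlated best with its own. There the block left the count at 1. Low counts limit most H3 and H4 genes.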

Other observations

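Variant histone genes outside the clusters were also measured. Of 12 such genes, 12 were tested in HCT116 in hypoxia and 3 rose, the linker histone gene H1F0 by 0.84 on the log2 scale (SE 0.11), H2AFJ by 0.34 (SE 0.10) and H2AFV by 0.21 (SE 0.07), where 14.6% of all genes rose. None of the 11 tested in PC3 was called by edgeR, where 11.3% of all genes were. Between the lines in normoxia 4 were higher and 8 lower in PC3, beside 42.9% and 40.5% of all genes. Among 13 histone chaperone and assembly genes, CHAF1B alone fell in PC3 in hypoxia, by 0.35 (SE 0.08), and none rose, beside 5.29% and 6.03% of all genes. In HCT116 ASF1A alone fell, by 0.48 (SE 0.08), and ASF1B alone rose, by 0.40 (SE 0.07), beside 11.3% and 14.6%.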
